A study of Mus musculus with 6 samples.

Results

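Lipolysis, the release of fatty acids from stored fat, was examined through 9 genes that carry out or control it in adipocytes: the lipases Pnpla2, Lipe and Mgll, the lipase cofactors Abhd5 and G0s2, the adrenergic receptors Adrb1 and Adrb3 and the natriuretic peptide receptors Npr1 and Npr3. They were picked by gene symbol from the 34745 genes in the count files, and all 9 were among the 15400 genes tested. Their RNA was sequenced from the subcutaneous fat of the groin (inguinal white adipose tissue, IngWAT), with 3 SAKI and 3 WT animals. SAKI denotes adipose-specific Slc35d3 knock-in on the C57BL/6 background, in which adiponectin-Cre, active in adipocytes, switches on an LSL-Slc35d3 transgene. WT mice carried the transgene locus without Cre, so Cre and the expressed transgene cannot be told apart. All mice were males fed a normal chow diet (NCD) (10 kcal% fat) between the ages of 6 and 16 weeks, a period of 10 weeks, and the labels record PBS perfusion for both groups.

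In adipocytes, triglyceride is broken down in steps. Pnpla2 (adipose triglyceride lipase) takes off the first fatty acid, Lipe (hormone-sensitive lipase) the next, and Mgll (monoglyceride lipase) the last. Abhd5 (CGI-58) activates Pnpla2, and G0s2 inhibits it. Catecholamines start the process through beta-adrenergic receptors and cAMP, natriuretic peptides act through Npr1 and cGMP, and Npr3 clears natriuretic peptides. Insulin restrains the whole pathway.

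The promoters of the genes whose values differed most between the groups are shown first, because cAMP and insulin act on transcription through factors that read short motifs. RefSeq windows on GRCm38.p6 were found for 8 of the 9 genes, in 10 windows; Adrb3 had no entry. In the 250 bases before each start site, both strands were searched, and capitals mark the match in the stretches below, which keep 30 bases on either side where the window allows. Abhd5, Adrb1, Npr3 and G0s2 each held TGACG, the core letters of the cAMP response element, and G0s2 held it on the opposite strand.
Abhd5, chr9:122351458-122351522, plus strand: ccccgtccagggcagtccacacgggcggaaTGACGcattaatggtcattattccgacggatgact
Adrb1, chr19:56721997-56722061, plus strand: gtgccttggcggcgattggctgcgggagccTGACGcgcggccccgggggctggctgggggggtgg
Npr3, chr15:11907387-11907451, minus strand: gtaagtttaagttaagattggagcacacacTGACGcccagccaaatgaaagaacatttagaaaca
G0s2, chr1:193273400-193273438, minus strand: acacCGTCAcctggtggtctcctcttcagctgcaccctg
Of all 32851 RefSeq windows, 17.8% held TGACG. The full element TGACGTCA, which contains it, was in 1.55% of windows and in none of these genes. Lipe and Mgll held the forkhead motif GTAAACA, present in 3.17% of windows, in Lipe on the opposite strand.
Lipe, chr7:25390195-25390261, minus strand: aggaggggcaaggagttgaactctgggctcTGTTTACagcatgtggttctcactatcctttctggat
Mgll, chr6:88724162-88724207, plus strand: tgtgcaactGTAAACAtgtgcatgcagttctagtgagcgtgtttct
Lipe and Mgll also shared the E-box CACGTG, found in 6.02% of windows. In Lipe the forkhead motif and the E-box lay in different windows, and in Mgll in the same window. The shares count windows, of which the 8 genes had 10. The GC box GGGCGG was in 7 of the 8 genes with a window, all but Npr3, and in 32.7% of windows. CCAAT was in Adrb1, Npr1 and Npr3 and in 33.8% of windows. A direct repeat read by PPAR receptors (the direct repeat with 1 base between its arms), was in 0.0335% of windows and in none of these genes.

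The libraries held 15354161 to 18787036 counts. Slc35d3 itself had 770 ± 24.0 CPM in SAKI mice and 76.6 ± 4.79 CPM in WT mice (counts scaled to library size, mean ± SD, n = 3 each), 10.0-fold higher with an adjusted p of 0.000244 from edgeR. The library labelled WT 2 stood apart from the other WT libraries. On the first principal component, which held 46.8% of the variance, the SAKI libraries lay between 20.9 and 30.3 and WT 2 at 27.9, whereas WT 1 lay at -43.2 and WT 3 at -61.9. Mitochondrial transcripts took 13.1% to 15.9% of counts in SAKI libraries, 13.8% in WT 2, 7.31% in WT 1 and 8.78% in WT 3. Therefore the differences of the 9 genes are also given without WT 2, and those of some of the other genes. WT 2 was singled out by its values in these same data, so calls made without it are a description and no independent support. That fit called 16.6% of all genes, against 0.0325% with all 6 libraries. Leaving out WT 1 or WT 3 instead called 0 of the 9 genes. All 12 mature adipocyte markers were detected. Their summed level was 16493 to 19158 CPM in SAKI libraries and 18449 to 25798 CPM in WT libraries.

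None of the 9 genes passed an adjusted p of 0.05 in edgeR's quasi-likelihood test, which called 5 of 15400 genes (0.0325%). For 8 of the 9, the estimate was lower in SAKI mice, with a median log2 fold change of -0.42, against -0.0035 over all genes tested, of which 50.4% were below 0. At an unadjusted p under 0.05, 5 genes were lower in SAKI mice (Lipe, Mgll, Abhd5, Adrb1 and Npr3), and 9.99% of all genes were. In 4 genes (Lipe, Mgll, Abhd5 and Adrb1) every SAKI mouse was below every WT mouse, and 12.4% of all genes separated in this direction. DESeq2 called 1 of the 9 lower, Abhd5, and 2.66% of all genes in that direction. Without WT 2, edgeR called 4 of the 9 (Mgll, Abhd5 and Npr3 lower, G0s2 higher), but it then also called 16.6% of all genes. In the same 5 libraries, 6 of the 9 genes had groups without overlap, as did 52.8% of all genes. In bulk tissue, fewer adipocytes and less RNA per adipocyte cannot be told apart.

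**Figure D1:**
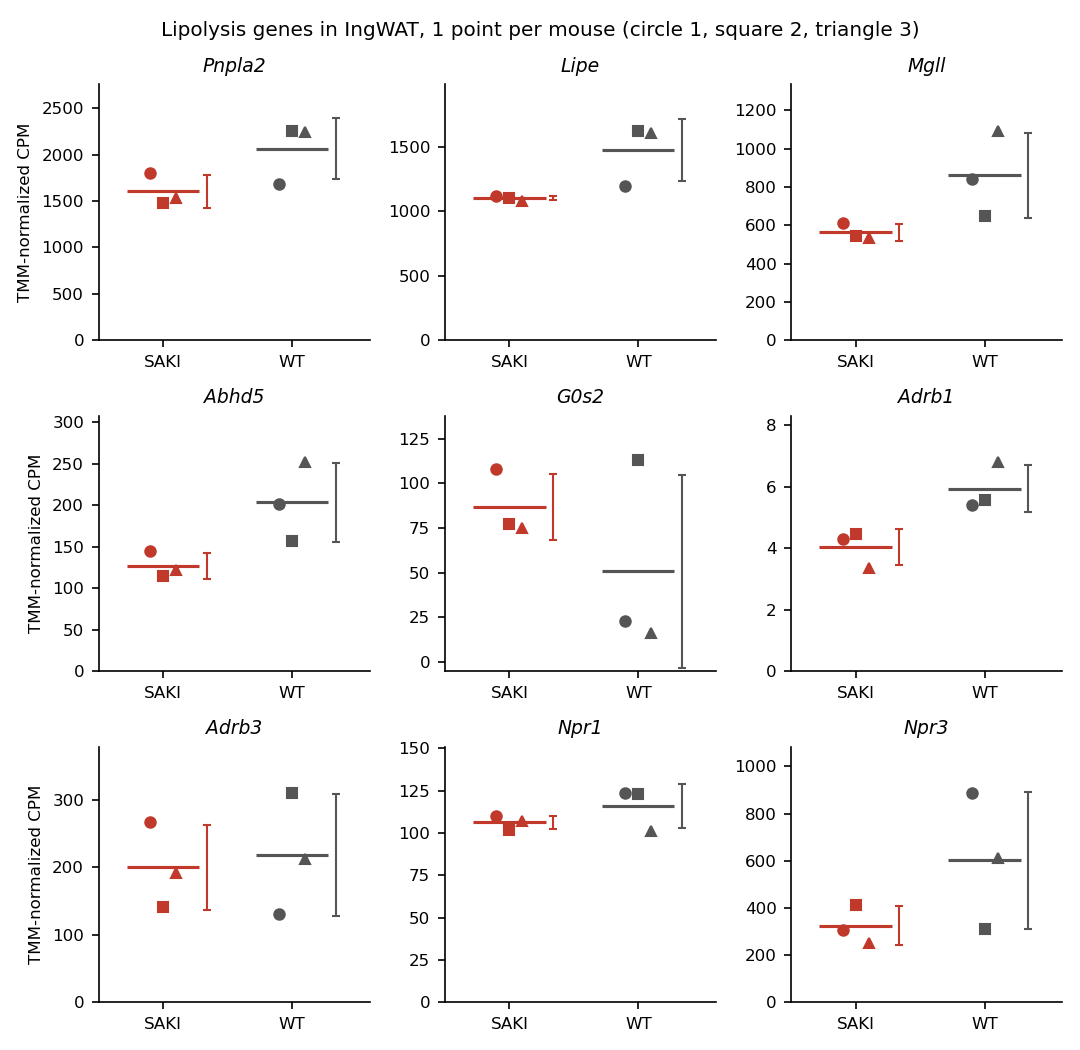
TMM-normalized CPM (y axis) of the 9 lipolysis genes in SAKI mice (red) and WT mice (grey), 1 point per mouse, with the shape giving the mouse number. Horizontal lines are means and bars are ± SD (n = 3 each). Lipe, Mgll, Abhd5 and Adrb1 show no overlap between the groups, and WT 2 is the highest point for G0s2 at 113 CPM and the lowest WT point for Npr3 at 309 CPM.

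The lipase of the first step, Pnpla2 (ENSMUSG00000025509, chr7:141455198-141460743 on GRCm38, plus strand), had 1801, 1474 and 1535 CPM in SAKI mice 1 to 3, against 1684, 2257 and 2246 CPM in WT mice 1 to 3. The groups overlapped because WT 1 lay below SAKI 1, while WT 2 and WT 3 were above every SAKI mouse. With edgeR, the log2 fold change was -0.36 ± 0.17 (SE), with a 95% interval of -0.77 to 0.04 and an adjusted p of 0.306, and it was -0.29 without WT 2.

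Lipe, the diglyceride lipase (chr7:25379527-25398710, minus strand), had 1116, 1102 and 1083 CPM in SAKI mice, against 1195, 1625 and 1606 CPM in WT mice. The highest SAKI mouse was 1.03 times the lowest, and WT 1 was the WT mouse nearest to them. On the log2 scale SAKI over WT was -0.42 ± 0.16 (95% interval -0.79 to -0.05, adjusted p = 0.239 from edgeR), and it was -0.35 without WT 2.

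Mgll, which splits the last fatty acid from glycerol (chr6:88724412-88828360, plus strand), had 612, 542 and 535 CPM in SAKI mice, against 840.1, 650.3 and 1093 CPM in WT mice. Here WT 2, not WT 1, was the WT mouse closest to the SAKI group. The log2 fold change of -0.61 ± 0.20 had a 95% interval of -1.08 to -0.14 and an adjusted p of 0.210 from edgeR. Without WT 2 it was -0.78 ± 0.15 and passed the test (adjusted p = 0.0211 from edgeR), a call made for 9.14% of all genes in this direction, and without WT 3 it was -0.41.

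Abhd5, the activator of Pnpla2 (chr9:122351608-122381524, plus strand), had 145, 115 and 122 CPM in SAKI mice, against 201, 157 and 252 CPM in WT mice. Every SAKI mouse was again below every WT mouse, and WT 2 was the lowest of the WT group. Of the 9 genes, it had the smallest p: the log2 fold change was -0.68 ± 0.19 (95% interval -1.13 to -0.23, adjusted p = 0.187 from edgeR and 0.0327 from DESeq2). Without WT 2 it was -0.83 ± 0.15 (adjusted p = 0.0189 from edgeR).

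G0s2, the inhibitor of Pnpla2 (chr1:193272161-193273217, minus strand), was the only gene of the 9 with a higher estimate in SAKI mice. It had 108, 77.5 and 74.9 CPM in SAKI mice, against 22.7, 113 and 16.0 CPM in WT mice. WT 2 was thus above all SAKI mice, and WT 1 and WT 3 far below them. The log2 fold change was 0.78 ± 0.69 (95% interval -0.85 to 2.40, adjusted p = 0.561 from edgeR). Without WT 2 it was 2.17 ± 0.23, or 4.49-fold (adjusted p = 0.00547 from edgeR), and 7.41% of all genes were called higher in that fit. Without WT 1 or WT 3 it was 0.43 or 0.35. Markers of fibroblasts and progenitors followed the same split of libraries. Summed over 8 genes, they had 8612 to 9704 CPM in SAKI mice, 4303 CPM in WT 1, 9362 CPM in WT 2 and 3051 CPM in WT 3, and none was at 0 in all libraries. Their part in the G0s2 values was not tested. G0s2 lies inside the span of Lamb3, a laminin gene on the opposite strand with 6.28 to 8.11 CPM, and the strand setting of the counts is not given in the sources used here. Lipe, Mgll, Abhd5 and Npr1 overlap antisense genes too, none of them above 3.01 CPM, and Adrb3 overlaps one that was not analysed here.

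**Figure D2:**
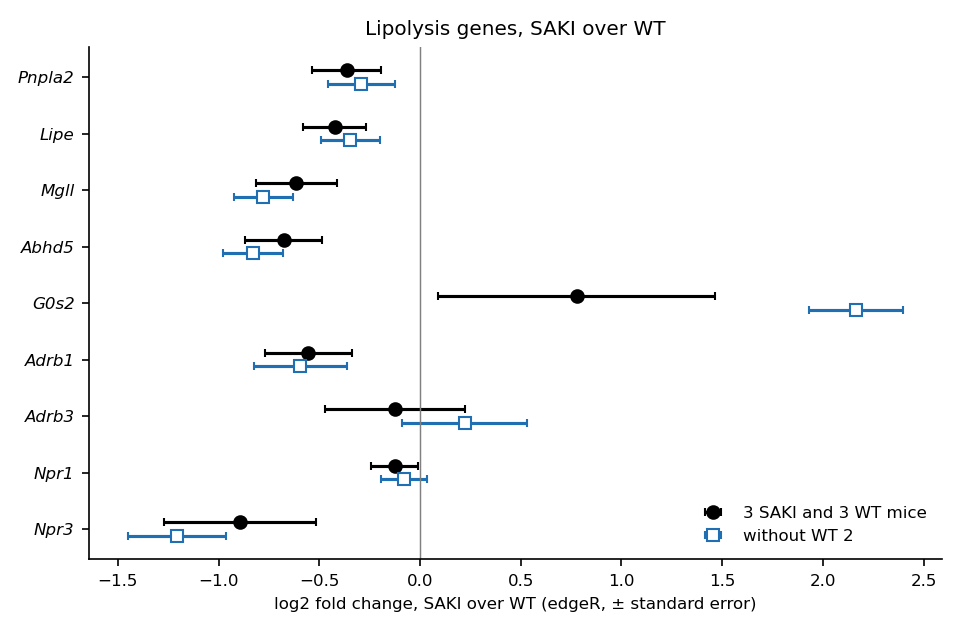
Log2 fold change of SAKI over WT (x axis) for each of the 9 genes (y axis) from edgeR, with ± standard error. Filled circles use 3 SAKI and 3 WT mice and open squares leave out WT 2. G0s2 is at 0.78 and at 2.17 without WT 2, Npr3 at -0.90 and -1.21, whereas Pnpla2 is at -0.36 and -0.29 and Lipe at -0.42 and -0.35.

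The beta-adrenergic receptors differed from each other in level and in pattern. Adrb1, the beta-1 receptor (chr19:56722372-56724862, plus strand), had 4.30, 4.46 and 3.36 CPM in SAKI mice, against 5.40, 5.58 and 6.81 CPM in WT mice. The groups did not overlap, but the values rest on only 65 to 104 reads a library. The log2 fold change was -0.55 ± 0.21 (95% interval -1.06 to -0.05, adjusted p = 0.250 from edgeR) and -0.59 without WT 2.

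Adrb3, the beta-3 receptor typical of mouse adipocytes (chr8:27225776-27229588, minus strand), had 268, 142 and 191 CPM in SAKI mice, against 131, 311 and 213 CPM in WT mice. The groups covered much the same range, with the highest mouse 1.89 times the lowest in SAKI mice and 2.38 times in WT mice. The log2 fold change was -0.12 ± 0.35 (95% interval -0.94 to 0.69, adjusted p = 0.866 from edgeR) and 0.22 without WT 2, so no direction can be given.

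Npr1, the signaling receptor for natriuretic peptides (chr3:90450591-90465866, minus strand), was the steadiest of the 9 genes. It had 109.8, 102 and 107 CPM in SAKI mice, against 124, 123 and 101 CPM in WT mice, and WT 3 was below all SAKI mice. Its log2 fold change was -0.13 ± 0.11 (95% interval -0.40 to 0.15, adjusted p = 0.574 from edgeR), and it was -0.08 without WT 2.

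Npr3, the clearance receptor (chr15:11839896-11905674, minus strand), had 305, 414 and 252 CPM in SAKI mice, against 888, 309 and 610.1 CPM in WT mice. WT 2 lay inside the SAKI range, and WT 1 and WT 3 above it. The log2 fold change was the lowest of the 9 genes at -0.90 ± 0.38 (95% interval -1.78 to -0.01, adjusted p = 0.270 from edgeR), and without WT 2 it was -1.21 ± 0.24 (adjusted p = 0.0256 from edgeR). It was -0.51 without WT 1, the highest of the 6 mice. The natriuretic peptide genes Nppa, Nppb and Nppc and Corin, a protease that activates one of these peptides, had 0 counts in all 6 libraries.

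Per length, the genes could be ranked by FPKM (counts scaled to gene length and library size), averaged over the 6 libraries. Pnpla2 stood first at 261 FPKM and was above Lipe (133 FPKM) in 6 of 6 libraries, as Lipe was above Mgll (89.6 FPKM). G0s2 (78.6 FPKM) and Npr3 (67.2 FPKM) came next, but their place moved with the library. Mgll exceeded G0s2 in 2 libraries and G0s2 exceeded Npr3 in 4, and both reached the range of Lipe in single mice, G0s2 with 122 FPKM in SAKI 1 and Npr3 with 135 FPKM in WT 1. Abhd5 (39.0 FPKM) and Adrb3 (35.01 FPKM) were also not separated, with Abhd5 higher in 3 of 6 libraries. Npr1 had 17.9 FPKM, and Adrb1, at 1.99 FPKM, was the lowest of the 9 in every library.

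Ratios of FPKM within a library then compared functional partners, for which an exact two-sided permutation test of 3 mice against 3 cannot go below p = 0.1. G0s2 to Pnpla2, inhibitor to lipase, was 0.482, 0.422 and 0.392 in SAKI mice, against 0.108, 0.402 and 0.0573 in WT mice. The SAKI mice were alike, and WT 2 fell among them. The mean log2 ratio differed by 1.67 (SAKI minus WT, exact permutation p = 0.2, adjusted over the 4 ratios 0.4). Abhd5 to Pnpla2, activator to lipase, was 0.133, 0.129 and 0.131 in SAKI mice, against 0.197, 0.115 and 0.186 in WT mice. WT 2 was the lowest of the 6 mice, and the difference was -0.30 (exact permutation p = 0.4). Npr3 to Npr1, clearance to signaling receptor, was 2.497, 3.66 and 2.12 in SAKI mice, against 6.44, 2.26 and 5.42 in WT mice (difference -0.68, exact permutation p = 0.3). Adrb3 to Adrb1 was 26.1, 13.4 and 23.9 in SAKI mice, against 10.2, 23.4 and 13.1 in WT mice (difference 0.47, exact permutation p = 0.2). The groups overlapped in each of the 4 ratios, and adjusted over the 4 every p was 0.4. Without WT 2, the differences were 2.45 for G0s2 to Pnpla2, -0.55 for Abhd5 to Pnpla2 and -1.14 for Npr3 to Npr1, each at an exact permutation p of 0.1, the smallest possible there too. Adrb3 to Adrb1 was then at 0.81 (exact permutation p = 0.2). Without WT 1, Abhd5 to Pnpla2, Npr3 to Npr1 and Adrb3 to Adrb1 were at -0.16, -0.38 and 0.21, and without WT 3 G0s2 to Pnpla2 was at 1.04.

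**Figure D3:**
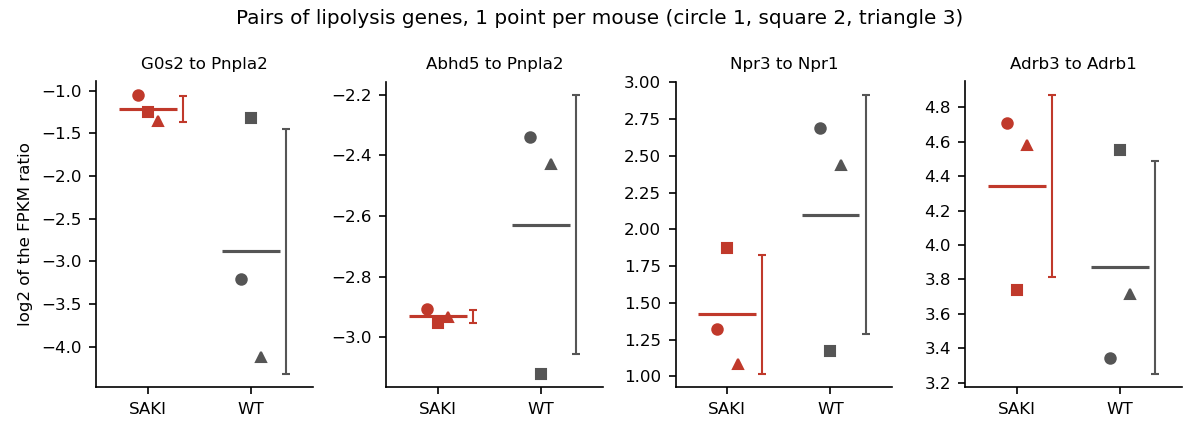
Log2 of the FPKM ratio (y axis) for 4 pairs of lipolysis genes in SAKI mice (red) and WT mice (grey), 1 point per mouse with the shape giving the mouse number, horizontal lines for means and bars for ± SD (n = 3 each). The y axes do not start at 0. WT 2 lies at or next to the SAKI mice in G0s2 to Pnpla2, with a ratio of 0.402, and in Npr3 to Npr1, with a ratio of 2.26.

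The 9 genes followed a few distinct profiles over the 6 mice. Likeness was measured as the root mean square difference of log2 CPM after centering each gene on its mean, with the 6 libraries as points and genotype as part of what they share. Mgll and Abhd5 were the closest pair (0.062), and Pnpla2 and Lipe the next (0.085). In Mgll and Abhd5, WT 3 was highest, WT 1 next and WT 2 lowest of the WT mice, whereas in Pnpla2 and Lipe WT 2 and WT 3 were both high and WT 1 was near the SAKI mice. G0s2 and Npr3 were the farthest pair (1.67). Adrb3 varied more within the groups than between them. The mature adipocyte markers, as mean log2 CPM, were 9.10, 8.97 and 8.90 in SAKI mice, against 8.91, 9.53 and 9.32 in WT mice, and thus placed WT 1 near the SAKI mice and WT 2 and WT 3 above, as Pnpla2 and Lipe did.

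**Figure D4:**
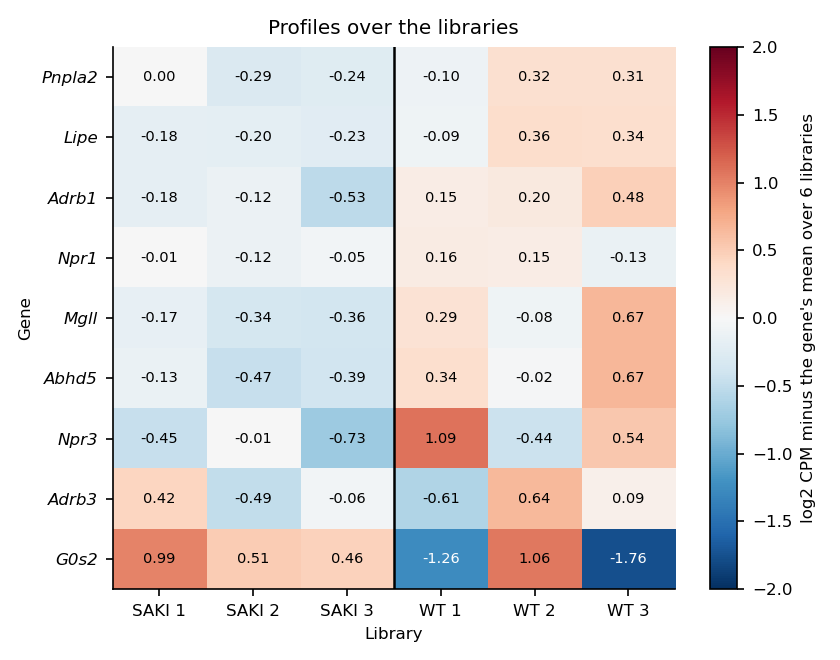
Centered log2 CPM (color, log2 units from each gene's mean over 6 libraries) of the 9 genes (rows) in the SAKI and WT libraries (columns). Pnpla2 and Lipe share one profile and Mgll and Abhd5 another, while G0s2 is at 1.06 in WT 2 but at -1.26 in WT 1 and -1.76 in WT 3.

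Set against these markers in the same library, few genes of any kind were lower in SAKI mice without overlap. The share over all genes was 0.74%, against 12.4% in CPM, and Lipe, Mgll, Abhd5 and Adrb1 also no longer separated the groups. After the mean log2 CPM of the 12 markers was subtracted, 0 of the 9 genes were lower in SAKI mice without overlap, as were 0.74% of all genes, and the difference became -0.09 for Pnpla2, -0.14 for Lipe, -0.32 for Mgll and -0.39 for Abhd5 (exact permutation p = 0.3, 0.3, 0.4 and 0.4). Of the 9, G0s2 alone separated the groups, higher by 1.58 on the log2 scale in SAKI mice (exact permutation p = 0.1, the smallest possible), but SAKI 2 at -2.69 and WT 2 at -2.71 nearly met. Its difference was 2.29 without WT 2 and 0.99 without WT 3. The share of all genes that were higher without overlap relative to the markers was not counted, so how unusual this separation of G0s2 is cannot be said. The subtracted marker mean was itself lower in SAKI mice (8.99 against 9.26 in WT mice), which moves every gene upward there. Without WT 2, which had the highest marker level, 6 of the 9 were lower in SAKI mice without overlap, against 14.2% of all genes. With the median of the markers in place of the mean, the differences of Pnpla2, Lipe, Mgll and Adrb1 turned to the other side of 0.

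Among 9896 genes with a mean of at least 10 CPM, those nearest to each profile were named, as a description only. Nearest to Pnpla2 were Bola3 (0.038), Vnn3 and Optn. Nearest to Lipe were Aldh4a1 (0.042), Ccbl2 and Bcat2, of which Aldh4a1 and Bcat2 encode mitochondrial enzymes of amino acid breakdown. Mgll lay nearest to Atpaf2 (0.038), Mgme1 and Bcap31, and Abhd5 to Dda1 (0.061), Rcl1 and Cyp26b1. The gene nearest to G0s2 was Fn1 (fibronectin, 0.153), which had 889.7, 841 and 856 CPM in SAKI mice, against 221, 1213 and 163 CPM in WT mice. Col14a1, a collagen, came next. For Adrb3, the nearest was Hcar1, the lactate receptor of adipocytes (0.136), with 81.2, 38.5 and 52.5 CPM in SAKI mice, against 45.5, 104 and 68.3 CPM in WT mice, followed by Slc43a1 and Lrig3. Adrb1 was nearest to Art3 (0.043), Mpdz and Nfix, Npr1 to Phc1 (0.0093), Dopey2 and Ehd4, and Npr3 to Palld (0.134), Fads3 and Ric3.

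Most other genes of the pathway also had estimates below 0, without passing the test. Of 67 listed genes 62 were tested, and 44 of these had estimates below 0. The median log2 fold change was -0.21, and edgeR called 0. An unadjusted p under 0.05 was reached by 11 genes on the lower side in SAKI mice, where 9.99% of all genes reached it, and by 3 on the higher side, where 8.36% did. DESeq2 called 6 lower and 1 higher, against 2.66% and 1.94% of all genes. Without WT 2, edgeR called 7 lower and 7 higher, against 9.14% and 7.41% of all genes.

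On the lipid droplet, 7 of 8 tested genes had estimates below 0. Plin1, the coat protein that holds Abhd5 away from Pnpla2 until it is phosphorylated, had 833, 693 and 594 CPM in SAKI mice, against 807, 1203 and 1402 CPM in WT mice, with WT 1 again among the SAKI mice (log2 fold change -0.69 ± 0.23, adjusted p = 0.218 from edgeR). Cidec, which drives droplet fusion, had 1147, 1261 and 1174 CPM in SAKI mice, against 1446, 1652 and 1725 CPM in WT mice. Its groups did not overlap (log2 fold change -0.43 ± 0.13, adjusted p = 0.198 from edgeR and 0.0335 from DESeq2). Without WT 2, Cidec was at -0.41 and did not pass the test (adjusted p = 0.0718 from edgeR). Hilpda, another inhibitor of Pnpla2, averaged 5.71 ± 0.411 CPM in SAKI mice and 9.39 ± 4.68 CPM in WT mice. Among other lipases, Lipa, the acid lipase of lysosomes, had 101, 93.3 and 107 CPM in SAKI mice, against 80.3, 82.7 and 74.2 CPM in WT mice, the opposite side from the cytosolic lipases (log2 fold change 0.35 ± 0.10, adjusted p = 0.192 from edgeR, and 0.0492 without WT 2, where 7.41% of all genes were called higher). The estimates for the carboxylesterase gene Ces1f and for Pnpla3 were -0.55 and -0.46.

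Genes of cAMP production held the smallest p-values of the list. Of 12 tested genes for G proteins and adenylyl cyclases, 9 had estimates below 0 and 3 above. DESeq2 called 4 of them lower and 1 higher, against 2.66% and 1.94% of all genes. The 4 included Adcy4 and Adcy6, named after their values were seen, at -0.57 and -0.51. Adcy5, an adenylyl cyclase, had 99.7, 95.3 and 104 CPM in SAKI mice, against 258, 142 and 269 CPM in WT mice. All SAKI mice were below WT 2, the lowest WT mouse (log2 fold change -1.16 ± 0.24, adjusted p = 0.155 from edgeR and 0.000536 from DESeq2). Gnai1, an inhibitory G protein subunit, had 147, 158 and 149.8 CPM in SAKI mice, against 219.5, 189 and 221 CPM in WT mice (log2 fold change -0.47 ± 0.11, adjusted p = 0.166 from edgeR and 0.0111 from DESeq2). Adcy7, another adenylyl cyclase, lay on the other side, with 133, 159.8 and 163 CPM in SAKI mice, against 114, 99.3 and 96.5 CPM in WT mice (log2 fold change 0.56 ± 0.13, adjusted p = 0.163 from edgeR and 0.0166 from DESeq2). Markers of immune cells also lay on the higher side, with estimates above 0 for 7 of 7 macrophage and 6 of 6 T cell markers and none at 0 in all libraries. The summed macrophage markers had 1956, 2032 and 2316 CPM in SAKI mice, against 1087, 1888 and 889 CPM in WT mice 1 to 3, so WT 2 lay near the SAKI mice. For the T cell markers the sum was 266 to 317 CPM in SAKI mice, against 136 to 214 CPM in WT mice. Their part in the Adcy7 values was not tested. Without WT 2, Adcy5, Gnai1 and Adcy7 were called by edgeR (adjusted p = 0.00175, 0.0149 and 0.0432). That fit called 4 genes of this role lower and 2 higher, against 9.14% and 7.41% of all genes.

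Of 12 tested genes for kinases and phosphodiesterases of cAMP and cGMP, 7 had estimates below 0 and 5 above. Downstream of cAMP, 3 regulatory subunits of protein kinase A, Prkar1b, Prkar2b and Prkar2a, had log2 fold changes of -1.03, -0.50 and -0.36, with adjusted p-values of 0.210 to 0.282 from edgeR. The remaining one, Prkar1a, named after its values were seen, was at -0.22 (adjusted p = 0.432 from edgeR). Without WT 2, edgeR called Prkar1b and Prkar2a lower (adjusted p = 0.0384 and 0.0296) and 2 genes of this role higher, against 9.14% and 7.41% of all genes. One of these, the cGMP-dependent kinase gene Prkg2, was also named after its values were seen. It was at 1.12, and at 2.09 without WT 2 (adjusted p = 0.0267 from edgeR). Of the 4 other activating receptors tested, 3 had estimates below 0 and 1 above. The thyrotropin receptor Tshr averaged 39.7 ± 3.27 CPM in SAKI mice and 55.3 ± 15.1 CPM in WT mice, without overlap. The natriuretic peptide receptor Npr2 and the glucagon receptor Gcgr had estimates of -0.24 and -0.34 (-0.09 and -0.23 without WT 2), and Gcgr had only 138 reads over the 6 libraries. The PACAP receptor Adcyap1r1, named after its values were seen, was at 0.53, and at 0.95 without WT 2. Of 9 inhibitory receptors, 6 had estimates below 0 and none separated the groups. Ptger3, a prostaglandin receptor, was at -0.58, the neuropeptide Y receptor Npy1r at 0.62 and the short-chain fatty acid receptor Ffar2 at -0.23. Without WT 2, Npy1r was at 1.12 and passed the test (adjusted p = 0.0343 from edgeR), as did 7.41% of all genes on the higher side. Ffar2 was then at -0.08. In the insulin arm, which restrains lipolysis, Irs1, the adaptor below the insulin receptor, had 56.8, 32.1 and 33.6 CPM in SAKI mice, against 61.1, 88.6 and 88.5 CPM in WT mice (log2 fold change -0.96 ± 0.26, adjusted p = 0.180 from edgeR and 0.0162 from DESeq2). Without WT 2, Irs1 was at -0.87 and did not pass the test (adjusted p = 0.0843 from edgeR). The kinase gene Akt1 was at -0.19. Of the 9 tested genes of this arm, 6 had estimates below 0 and 3 above. An unadjusted p under 0.05 from edgeR was reached by 1 gene on each side, against 9.99% of all genes on the lower side and 8.36% on the higher side. Without WT 2, edgeR called 0 of them lower and 1 higher, against 9.14% and 7.41% of all genes. The prostaglandin synthase genes Ptgs1 and Ptgs2 had estimates of 0.17 and -0.63, with overlapping groups, and Ptgs2 had only 172 reads over the 6 libraries. Without WT 2, Ptgs1 and Ptgs2 were at 0.45 and 1.12, so the sign for Ptgs2 rests on that library.

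**Figure D5:**
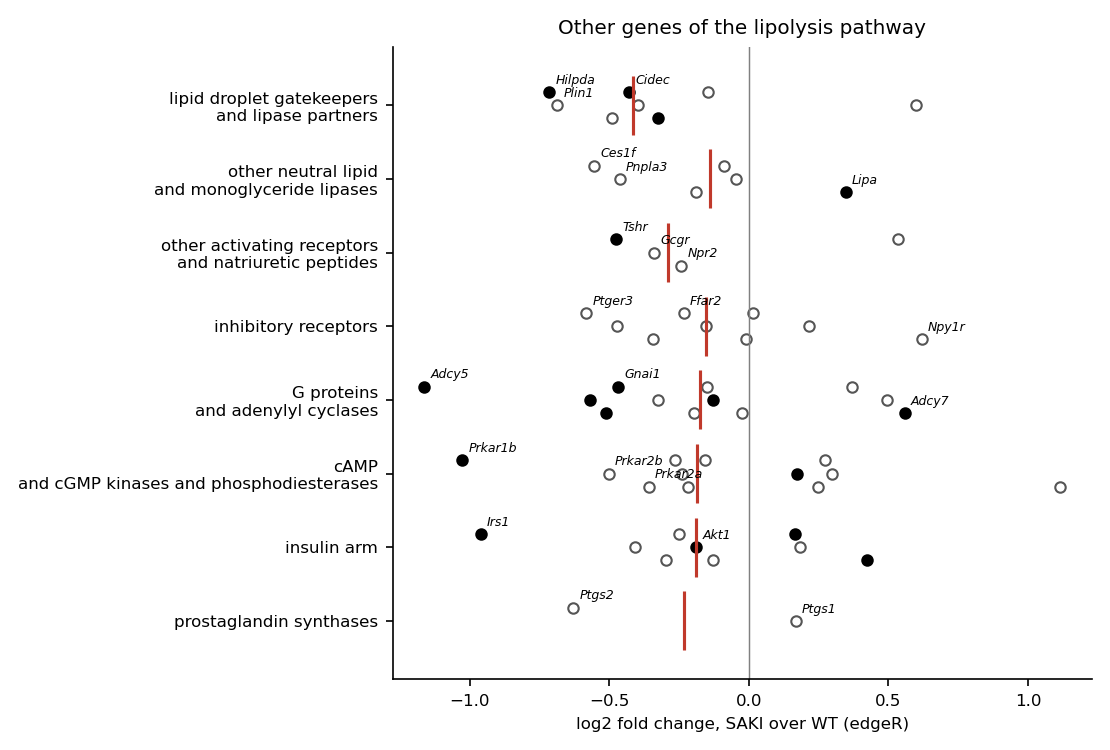
Log2 fold change of SAKI over WT (x axis) from edgeR for the 62 tested genes of 8 roles in lipolysis (y axis), 1 point per gene. Filled points are genes whose groups did not overlap, red bars are medians of each role, and some genes of smallest p in each role are named. Adcy5 lies lowest at -1.16.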

How the data were processed

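IngWAT RNA from 6 mice was sequenced after poly(A) capture. The labels name a different extraction kit from the Trizol reagent in the methods of the study. The authors deposited 1 table of raw counts by gene per library, and FPKM values for all libraries that are these counts scaled to gene length and library total. In the submitters' processing notes, Bowtie2 2.2.6, StringTie 1.3.0, HISAT2 2.0.4 and the build GRCm38 appear without a role. Not given in the sources used here are the counting tool, its strand setting and the annotation release. Gene positions are those of the files. For Adrb1, Adrb3 and Npr3 they are shorter than in the GENCODE annotation. In the files, 27 gene names turned into dates were restored from gene IDs.

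Tests on counts used the R (4.3.3) package edgeR 4.0.16 (filterByExpr at its minimum of 10 counts and 15 in total, TMM, genotype only, quasi-likelihood test, Benjamini-Hochberg over all genes, adjusted p under 0.05), which was tested on simulated data. DESeq2 1.42.0, limma 3.58.1 with voom or on log2(FPKM + 1), other scalings, no filter, a replicate block and each library left out in turn were the alternatives. The labels number the mice as separate animals and give no batch. Named were the 9 genes, up to 3 genes of smallest p per role of the pathway list, and the 3 genes nearest to each profile (predicted genes left out); a few of these are not reported here. The genes and lists were chosen with earlier results of these data known. The count of genes whose groups do not overlap was repeated without WT 2 after the data were seen, and its share over all genes relative to the markers was added then.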

Additional observations from a re-analysis of the deposited data

How the results depend on the processing

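Of 135 values of the 9 genes under 15 alternatives, 128 kept their direction and their side of the threshold, 5 passed it newly and 2 changed sign. Both changes of sign were in Adrb3, at 0.04 without SAKI 2 and 0.22 without WT 2, the highest of its values with 1 library left out (lowest -0.41, without SAKI 1). With 0 of the 9 genes called by edgeR, DESeq2 called 1, and leaving out 1 library gave 0 to 4 calls, the 4 without WT 2. Of the other lipolysis genes edgeR called 0, DESeq2 7, and leaving out 1 library gave 0 to 14, the 14 without WT 2. Over all genes, 5 calls became 685 with DESeq2, 8 with no filter on low counts, 9 with FPKM at either pseudocount (1 or 0.1) and 1 to 2598 with 1 library left out, the highest without WT 2. The cause was not tested.

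Same-numbered mice did not deviate together (correlations of 0.014, 0.023 and 0.099 over 15400 genes), so the numbers were not taken as pairs. With the replicate block, 0 of the 9 genes, 0 of the other lipolysis genes and 1 gene of all were called. Relative to the median of the adipocyte markers, the differences were 0.23 for Pnpla2, 0.18 for Lipe, 0.0028 for Mgll and 0.034 for Adrb1. The count of genes lower without overlap relative to the markers was 0 to 6 with 1 library left out, the 6 without WT 2. The count without overlap in CPM was 6 without WT 2, against 52.8% of all genes. The counts of Adrb1, 65 to 104 a library, limit its precision.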
